A study of Arabidopsis thaliana with 36 samples.

Results

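The genes described here are 10 members of the xyloglucan endotransglucosylase/hydrolase (XTH) family of *Arabidopsis thaliana*: *XTR6* (also called *XTH23*), *TCH4* (*XTH22*), *XTH24*, *XTH25*, *XTH17*, *XTH18*, *XTH19*, *XTH20*, *XTH4* and *XTH33*. They were chosen by name, with earlier results of these data known, by a rule that itself uses no measured value. They make up 10 of the 33 XTH genes and of the 36632 genes counted in every library. All 10 passed the filter on low counts. Transcripts of seedlings were sequenced in 12 groups of 3 biological replicates, 36 libraries in all. Each of 3 genotypes, *hsfa2*, *cdk8* and WT (Col-0), received 4 treatments. The mutants are each 1 T-DNA insertion line in the Col-0 background (*hsfa2-1*, SALK_008978, and *cdk8*, GABI_564F11), so an effect of the gene and of the line cannot be told apart from these libraries alone. A heat stress (HS) was 1 h at 37 °C and fell on day 5 (P, priming), on day 7 (T, triggering) or on both days (P+T), while NHS seedlings had none. All seedlings were harvested together on day 7, so that P seedlings had recovered since day 5 and T and P+T seedlings had just been heated.

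XTH enzymes act in the plant cell wall on xyloglucan, the hemicellulose that tethers cellulose microfibrils. They cut a xyloglucan chain and either join the new end to another chain or release it to water, and so loosen, strengthen or remodel the wall as cells grow. The family is large in plants, and its members differ mainly in the organ and signal that switches them on. *TCH4* takes its name from its induction by touch and also answers to heat, cold and darkness, *XTH17* to *XTH20* form a group of close relatives known from roots, and *XTH4* is known from vascular tissue. *HSFA2* encodes a heat shock factor needed to sustain and re-induce heat-responsive genes, and *CDK8* the kinase of the Mediator kinase module, which couples transcription factors to RNA polymerase II.

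The enzymes share a catalytic site with a glutamate nucleophile and a glutamate acid/base. Its coding stretch is shown for all 10 genes (5′ to 3′ on the coding strand, TAIR10.1, RefSeq annotation) because it ties these differently expressed genes together. Capitals mark the codons of the 2 catalytic glutamates.
*XTR6*, chr4:13129072-13129098, forward: gacGAGattgactttGAGttcttggga
*TCH4*, chr5:23307839-23307865, reverse: gacGAGatagatttcGAGtttttaggg
*XTH24*, chr4:14820042-14820068, reverse: gatGAGattgattttGAGttcttgggt
*XTH25*, chr5:23305797-23305823, reverse: gacGAAatcgatttcGAGtttcttggt
*XTH17*, chr1:24257682-24257708, forward: gatGAGatcgatttcGAGttcttggga
*XTH18*, chr4:14826569-14826595, reverse: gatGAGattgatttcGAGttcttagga
*XTH19*, chr4:14829561-14829587, reverse: gatGAGattgatttcGAGtttttgggg
*XTH20*, chr5:19482565-19482591, forward: gatGAAatagattttGAGttcttggga
*XTH4*, chr2:2764493-2764519, forward: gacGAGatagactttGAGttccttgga
*XTH33*, chr1:3480306-3480332, reverse: gacGAGatagacataGAAttgttgggt

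Over these 27 bases the other genes matched *XTR6* at 19 (*XTH25*) to 24 (*XTH24*, *XTH4*) positions. Over the whole coding sequence, *TCH4* was the closest of the 10 to *XTR6* (79.2% identity), *XTH17* to *XTH20* were 79.3 to 87.4% identical to each other, and *XTH33* was the most distant from *XTR6* (49.4%). *XTR6* (AT4G25810, 3 exons, chr4:13128394-13129927) lies 363 bp from *XTH14*, which is not among the 10. *XTH24* (AT4G30270), *XTH18* (AT4G30280) and *XTH19* (AT4G30290) follow each other on the reverse strand of chromosome 4 with gaps of 5161 and 1500 bp, and *XTH25* (AT5G57550) and *TCH4* (AT5G57560) on that of chromosome 5 with a gap of 565 bp. *XTH17* (AT1G65310), *XTH20* (AT5G48070), *XTH4* (AT2G06850) and *XTH33* (AT1G10550) have no other XTH gene beside them. None of the 10 overlaps another gene, and no 100-bp word of their transcripts occurs in another XTH gene.

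Between 29409330 and 31224343 read pairs were counted per library. A normalised CPM is 1 pair per 1000000 counted pairs after scaling by TMM factors, whose group medians were 0.727 to 0.844 at T and P+T and 1.25 to 1.32 at NHS and P. *CDK8* had 4.14 to 5.45 normalised CPM in *cdk8* libraries, against 19.1 to 39.4 in the other genotypes. *HSFA2* had 1166 to 1608 normalised CPM at T in *hsfa2* and 1593 to 1792 in *cdk8*, against 6099 to 7142 in WT, without overlap of either mutant with WT. The log2FC of *hsfa2* against WT was −2.23 for *HSFA2*, with an adjusted p of 0.377. All 4 shoot and all 6 root marker genes were detected in every group, with the root hair gene *COBL9* lowest (0.381 normalised CPM). The summed level of the 4 shoot markers overlapped WT in *cdk8* at each treatment. In *hsfa2* it was below WT at NHS (29418 to 33842, against 35011 to 37251 in WT) and overlapped elsewhere. *RBCS1A* alone was above every WT library in *cdk8* at T (27806 to 34315, against 20659 to 24268 in WT) and P+T (30545 to 34647, against 23120 to 27416 in WT). The summed level of the 6 root markers was lower in *cdk8* at each treatment, with 1773 to 1947 normalised CPM in *cdk8* at NHS, against 2329 to 2672 in WT, and 1071 to 1169 in *cdk8* at T, against 1332 to 1513 in WT. In *hsfa2* the sum was below WT at P (2293 to 2621 in *hsfa2*, against 2873 to 3204 in WT) and P+T (1685 to 1707 in *hsfa2*, against 2089 to 2203 in WT) and overlapped WT at NHS and T. The sum rests mostly on *PYK10* (a mean of 2332 of 2468 normalised CPM in WT at NHS), and single markers did not all follow it. At T *COBL9* averaged 1.14 in *cdk8*, against 0.817 in WT, and *PRP3* 27.5 in *cdk8*, against 20.1 in WT. In *hsfa2* at P+T *PYK10* averaged 1629, against 2085 in WT. *COBL9* (0.516 against 0.980) and *PRP3* (22.2 against 22.5) were also lower there. *EXPA7* (4.55 against 4.28), *LRX1* (5.41 against 5.03) and *TIP2;3* (31.0 against 28.3) were higher. Only *TIP2;3* was down-regulated in *cdk8*, at all 4 treatments (1 of 6), beside 1.55% (NHS), 1.4% (P), 5.56% (T) and 6% (P+T) of all genes. None of the 6 was called in *hsfa2* against WT, beside 0.0192% (NHS), 0.173% (P), 0.0528% (T) and 1.71% (P+T) of all genes in either direction. In bulk seedlings, fewer cells of a type and less RNA per cell cannot be told apart.

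At NHS in WT the 10 genes spanned levels from 2.00 to 469 normalised CPM per kb of transcript. *TCH4* was highest with 469 ± 18.4 (SD, n = 3), before *XTH24* with 346 ± 85.0 and *XTH4* with 299 ± 73.9, which did not differ beyond their spread. *XTH18* (43.1 ± 6.72), *XTR6* (42.7 ± 5.98) and *XTH19* (26.4 ± 8.33) followed, of which *XTH18* and *XTR6* were level. *XTH17* had 10.7 ± 2.57, and *XTH20* (4.06 ± 0.65), *XTH33* (3.68 ± 1.62) and *XTH25* (2.00 ± 1.20) were lowest, with overlapping spreads. After recurrent HS the order at the top was different in WT, where *XTR6* reached a level of 645 normalised CPM per kb and stood behind *TCH4* (973) and ahead of *XTH24* (225).

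*XTR6* had the largest increase among the 10 genes after recurrent HS. In WT its libraries had 67.9, 52.3 and 55.6 normalised CPM at NHS, 131, 162 and 128 at P, 172, 178 and 69.0 at T, and 823, 928 and 906 at P+T. Every P+T library lay far above every library of the other treatments. At P all 3 libraries exceeded those at NHS, and at T 2 of the 3 did so clearly while replicate 3 (69.0) was just above the highest NHS value. In the quasi-likelihood test of edgeR over 20847 genes, *XTR6* was up-regulated 6.34-fold in P+T/T in WT (log2FC 2.66, standard error (SE) 0.31, adjusted p = 3.86e-07). Up-regulation means an adjusted p under 0.05 with a log2FC above 1, and down-regulation the same below −1. Relative to P, the log2FC at P+T was also 2.66 (adjusted p = 3.56e-08), and 1.91 with library size alone, under which P+T/T stayed at 2.66. T/NHS gave a log2FC of 1.25 (SE 0.31, adjusted p = 0.000989), which held without each library in turn. It depended on the scaling, with 0.50 (adjusted p = 0.156) for library size alone, and a range of 0.000478 to 0.156 over the alternative settings that kept every library. P/NHS, 2 days after the priming HS, gave a log2FC of 1.26 (SE 0.31) that did not pass over all genes with edgeR (adjusted p = 0.067) and did with DESeq2 (0.0342, range over such settings 0.0162 to 0.0899).

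**Figure D1:**
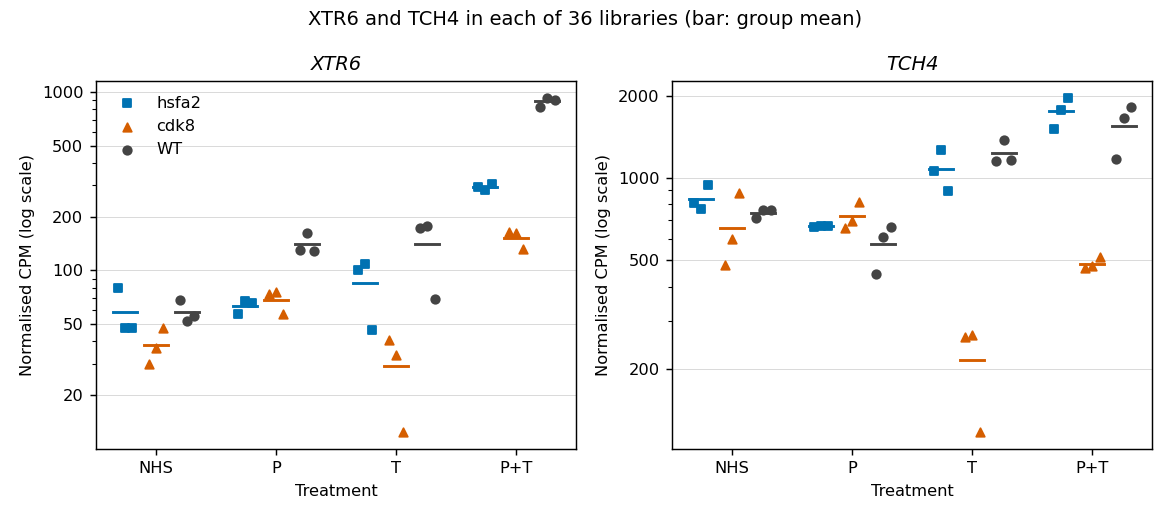
Normalised CPM (log axis) of *XTR6* (left) and *TCH4* (right) in each library, by treatment and, within a treatment, for *hsfa2*, *cdk8* and WT. Points are libraries and short bars are means of 3. The P+T libraries of *XTR6* keep apart by genotype (282 to 305 in *hsfa2*, 132 to 163 in *cdk8*, 823 to 928 in WT), whereas *TCH4* is low in *cdk8* at T and P+T.

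In *hsfa2*, *XTR6* had 79.3, 47.3 and 47.9 normalised CPM at NHS, 56.7, 67.0 and 66.0 at P, 101, 109 and 46.3 at T, and 291, 282 and 305 at P+T. *hsfa2* and WT libraries overlapped at NHS and T and were fully apart at P and P+T. At P+T *XTR6* was down-regulated 3.02-fold in *hsfa2* (log2FC −1.60, SE 0.31, adjusted p = 0.000924), and this held without each library in turn. The sum of the root markers, mostly *PYK10*, was lower in *hsfa2* at P and P+T as well, and its part in this difference was not tested. At P the log2FC was −1.15 (adjusted p = 0.157). Same-numbered libraries of the 2 genotypes deviated together at P, so a fit that blocks on those numbers was also run, and in it the difference passed (log2FC −1.13, adjusted p = 0.0485, range over settings 0.0485 to 0.317). At T, where same-numbered libraries also deviated together, *XTR6* was lower in *hsfa2* in each of the 3 same-numbered pairs, and the log2FC was −0.71 (adjusted p = 0.776, and 0.523 in the blocked fit, with 0.307 to 0.999 over all alternatives). The blocked fit gives each number 1 shift shared by all 12 groups. Replicate 3 of *XTR6* deviated from its group mean by −0.774 in *hsfa2* and −0.886 in WT at T, and by −0.233 and −0.065 at NHS (log2(normalised CPM + 1)). A shared shift does not take up a deviation that differs by treatment, so a pairing at T alone was not tested. Within *hsfa2*, neither P/NHS (log2FC 0.12, adjusted p = 0.999) nor T/NHS (0.55, adjusted p = 0.126, and −0.22 with library size alone) passed, while P+T/T did (1.78, SE 0.31, adjusted p = 0.000531) and so did P+T/P (2.21, adjusted p = 8.03e-07, and 1.41 with library size alone).

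In *cdk8*, *XTR6* had 29.9, 36.9 and 47.3 normalised CPM at NHS, 74.1, 75.2 and 56.7 at P, 41.0, 33.7 and 12.4 at T, and 163, 162 and 132 at P+T. These were below all WT libraries at each of the 4 treatments. The exact two-sided permutation test of the means gave 0.1 in each case, the smallest value that 3 against 3 libraries allow (0.133 when adjusted over 8 comparisons, the 4 with *hsfa2* included). At T *XTR6* was down-regulated 4.81-fold (log2FC −2.26, SE 0.31, adjusted p = 4.29e-06) and at P+T 5.81-fold (−2.54, SE 0.31, adjusted p = 5.58e-07). At P it passed narrowly (−1.03, adjusted p = 0.0429) and lost the call without any 1 of the 6 libraries compared (−0.91 to −1.10, adjusted p 0.0729 to 0.166) and with library size alone (−0.98, adjusted p = 0.0713). At NHS the log2FC was −0.62 (adjusted p = 0.276). Within *cdk8*, T/NHS gave −0.39 (adjusted p = 0.3) and P/NHS gave 0.85 (adjusted p = 0.953), neither of which passed. Recurrent HS raised it 5.24-fold over T (log2FC 2.39, SE 0.31, adjusted p = 7.49e-06) and 2.22-fold over P (1.15, adjusted p = 0.00214, and 0.143 with library size alone, range over settings 0.00068 to 0.143). The mean P+T level was 293 ± 12 normalised CPM in *hsfa2* and 152 ± 17.9 in *cdk8*, against 886 ± 55.3 in WT (SD, n = 3 each).

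Differences between a mutant and WT in the size of a response were tested directly as interactions, which were called at an adjusted p under 0.05. For P+T/T, the response of *XTR6* was not shown to differ from WT in *hsfa2* (−0.88, SE 0.44, adjusted p = 0.671) or *cdk8* (−0.27, SE 0.44, adjusted p = 0.954). No gene among the 10 passed in P+T/T for either mutant, where 1.2% of all genes passed for *hsfa2* and 0.739% for *cdk8*. T/NHS differed in *cdk8* for *XTR6* (−1.64, SE 0.44, adjusted p = 0.0262) and *TCH4* (−2.32, SE 0.31, adjusted p = 6.48e-06), 2 of 10 genes, where 3.32% of all genes had a lower response. The value of *XTR6* missed the threshold without WT NHS replicates 2 or 3, WT T replicates 1 or 2, *cdk8* NHS replicate 3 or *cdk8* T replicate 3 (−1.28 to −1.60, adjusted p 0.0635 to 0.0957), and with library size alone (0.0586, range over settings 0.00802 to 0.0586). T/NHS in *hsfa2* gave no call among the 10 genes (0.0048% of all genes). Among comparisons added after the values were seen, P+T/P was reduced in *cdk8* relative to WT for *TCH4* (−2.01, SE 0.31, adjusted p = 5e-05), *XTR6* (−1.51, SE 0.44, adjusted p = 0.0396) and *XTH18* (−1.46, SE 0.41, adjusted p = 0.029), 3 of 10 against 4.09% of all genes. Of these, *XTR6* lost the call without any of 10 of the 12 libraries compared (the exceptions were WT P replicate 2 and *cdk8* P replicate 3, −1.42 to −1.56, adjusted p 0.058 to 0.11). *XTH18* lost it without WT P replicates 1 or 3, WT P+T replicate 2, *cdk8* P replicates 1 or 2, or *cdk8* P+T replicates 1 or 3 (−1.26 to −1.49, adjusted p 0.0511 to 0.106). P+T/P in *hsfa2* gave none of 10 (1.81% of all genes).

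**Figure D2:**
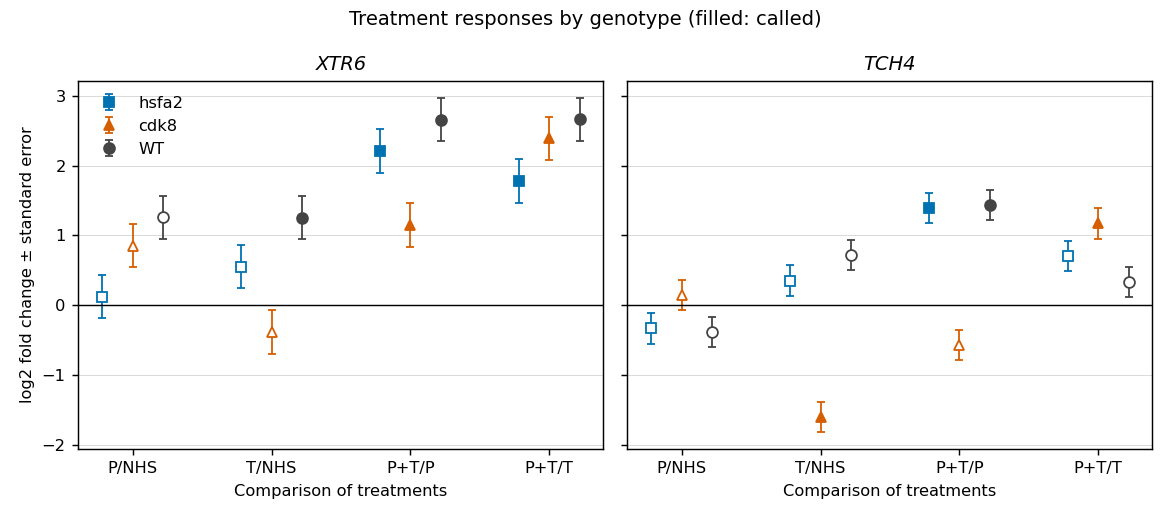
log2 fold changes with standard errors of *XTR6* (left) and *TCH4* (right) for 4 comparisons of treatments, in *hsfa2*, *cdk8* and WT, from edgeR (3 libraries per group). Filled symbols were called. The P+T/T values of *XTR6* are 1.78 in *hsfa2*, 2.39 in *cdk8* and 2.66 in WT, and the T/NHS value of *TCH4* is −1.60 in *cdk8*.

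Whether priming changed the response of *XTR6* beyond a lasting shift of its level was asked by subtracting the log2FC of P/NHS from that of P+T/T, also added after the values were seen. The difference was 1.66 in *hsfa2* (adjusted p = 0.0502), 1.54 in *cdk8* (adjusted p = 0.0487) and 1.41 in WT (adjusted p = 0.0544), with a standard error of 0.44 in each. The 3 adjusted p lay on both sides of the threshold, and the differences between genotypes in this value were not tested. Their adjusted p ranged over the alternatives from 0.0162 to 0.086 in *hsfa2*, 0.0123 to 0.106 in *cdk8* and 0.0165 to 0.0751 in WT. *XTR6* in *cdk8* was the 1 call among the 10 genes in the 3 genotypes, where 1.14% of all genes were higher in *hsfa2*, 2.19% in *cdk8* and 3.9% in WT. That call was lost without *cdk8* NHS replicates 2 or 3, *cdk8* T replicate 3 or any *cdk8* library at P or P+T (1.17 to 1.63, adjusted p 0.0558 to 0.151), and the value passed without *hsfa2* T replicates 1 or 2 (1.8 and 1.87) and without WT T replicates 1 or 2 (1.59 and 1.62).

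*TCH4*, of the 10 the closest to *XTR6* in sequence, kept high levels in *hsfa2* and WT and fell in *cdk8* once heat was applied on day 7. In *cdk8* it had 479, 599 and 884 normalised CPM at NHS, 654, 696 and 819 at P, 262, 266 and 118 at T, and 468, 475 and 515 at P+T. In WT it had 713, 763 and 764 at NHS, 447, 609 and 661 at P, 1149, 1378 and 1160 at T, and 1171, 1659 and 1811 at P+T. At NHS and P the *cdk8* and WT libraries overlapped, and at T and P+T every *cdk8* library was below every WT library. *TCH4* was down-regulated 5.70-fold in *cdk8* at T (log2FC −2.51, SE 0.22, adjusted p = 7.3e-10) and 3.19-fold at P+T (−1.67, SE 0.22, adjusted p = 1.09e-06). In T/NHS it fell in *cdk8* (−1.60, SE 0.22, adjusted p = 3.85e-07), whereas in WT its log2FC was 0.72 (adjusted p = 0.00524, below the fold threshold). The WT value was −0.05 with library size alone, so its direction depends on the scaling. In *hsfa2*, *TCH4* ranged from 663 normalised CPM at P to 1963 at P+T and was not called against WT at any treatment. Its *hsfa2* libraries lay just above all WT libraries at NHS (771 to 938) and P (663 to 670) and overlapped them at T and P+T. T/NHS in *hsfa2* gave 0.35 (adjusted p = 0.162), and −0.43 with library size alone. P+T/P raised *TCH4* in *hsfa2* (1.39, adjusted p = 3.08e-06) and WT (1.43, adjusted p = 1.79e-06), with values of 0.58 and 0.67 for library size alone, below the fold threshold. In *cdk8* P+T/P gave −0.57 (adjusted p = 0.0229), and −1.20 with library size alone, past the threshold. P+T/T gave 0.71 in *hsfa2* (adjusted p = 0.0424), 1.17 in *cdk8* (SE 0.22, adjusted p = 0.00051) and 0.33 in WT (adjusted p = 0.349), so that *TCH4* was called only in *cdk8*. That call was lost without *cdk8* T replicate 3, the lowest library (0.88, adjusted p = 0.00715), and the difference from WT in this response did not pass (0.84, adjusted p = 0.324).

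*XTR6* and *TCH4* also differed between the 2 mutants, in comparisons added after the values were seen. Relative to *hsfa2*, *cdk8* had 4 of 10 genes lower at T (5.59% of all genes) and 3 of 10 at P+T (6.26%), and none higher. *TCH4* was lower at T (log2FC −2.32, adjusted p = 3.48e-09) and at P+T (−1.85, adjusted p = 1.68e-07). *XTR6* was lower at T (−1.55, adjusted p = 0.000573), and at P+T its log2FC was −0.94 (adjusted p = 0.0262), below the fold threshold. *XTH20* (−1.15 at T, −1.33 at P+T, adjusted p = 0.00541 and 0.00165) and *XTH33* (−2.92 and −2.37, adjusted p = 0.00242 and 0.0035) were the other genes called. *XTH20* at T lost the call without *hsfa2* T replicate 3 (−0.92, adjusted p = 0.0472) and with library size alone (−0.94).

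*XTH18*, a member of the root group, was the other gene that was lower in both mutants after recurrent HS. At P+T it had 22.7, 29.5 and 15.8 normalised CPM in *hsfa2* and 15.2, 17.5 and 11.1 in *cdk8*, against 50.1, 67.2 and 42.9 in WT. No library of either mutant reached the lowest WT library. The summed root markers, mostly *PYK10*, were lower than in WT in both mutants at P+T, and their part in this result was not tested. The log2FC was −1.24 in *hsfa2* (SE 0.29, adjusted p = 0.00635) and −1.87 in *cdk8* (SE 0.29, adjusted p = 2.04e-05). The *hsfa2* value was not called without *hsfa2* P+T replicate 3 (−1.04, adjusted p = 0.0583). At T it had 10.4, 12 and 9.12 normalised CPM in *cdk8*, against 37.1, 41.1 and 13.6 in WT, where replicate 3 was low but above all *cdk8* libraries (−1.55, SE 0.30, adjusted p = 0.000311). In T/NHS *XTH18* fell in *hsfa2* (−1.29, adjusted p = 0.000346) and *cdk8* (−1.97, adjusted p = 1.96e-06), and gave −0.83 in WT (adjusted p = 0.0131). In WT, leaving out T replicate 2 (−1.10) or library size alone (−1.58) brought it past the fold threshold, and leaving out T replicate 3, the low library, gave −0.48 (adjusted p = 0.122). In P+T/T in WT its log2FC was 0.80 (adjusted p = 0.0539), with 1.07 (adjusted p = 0.0238) without WT T replicate 2 and 0.45 (adjusted p = 0.302) without WT T replicate 3. Its neighbour *XTH24* had no call in either mutant at any treatment. The mean of *XTH24* was higher in *cdk8* than in WT at NHS (636 against 419 normalised CPM) and P (734 against 451), with overlapping libraries. The other neighbour of *XTH18*, *XTH19*, gave −0.72 in *cdk8* at T (adjusted p = 0.0505) and −0.76 at P+T (adjusted p = 0.04), below the fold threshold, with −1.02 without WT P+T replicate 1.

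*XTH20* and *XTH33* were lower in *cdk8* at all 4 treatments, NHS included. *XTH20* had 1.66, 1.86 and 1.88 normalised CPM at NHS in *cdk8*, against 4.66, 6.28 and 6.20 in WT, with no overlap. Its log2FC was −1.67 at NHS (SE 0.24, adjusted p = 3.49e-05), −1.24 at P (adjusted p = 0.00112), −1.58 at T (adjusted p = 0.000156) and −1.51 at P+T (adjusted p = 0.00041). *XTH33* had 2.1, 1.02 and 1.01 at NHS in *cdk8*, against 6.67, 3.00 and 3.67 in WT, also without overlap. Its log2FC was −1.69 at NHS (SE 0.31, adjusted p = 0.000741), −1.39 at P (adjusted p = 0.00345), −2.97 at T (SE 0.84, adjusted p = 0.00202) and −2.48 at P+T (SE 0.66, adjusted p = 0.00243). At T each *cdk8* library held 2 read pairs of *XTH33*, 6 in all, against 42 in the 3 WT libraries. The normalised ratio was 0.121 (exact 95% interval 0.0421 to 0.286, counting error only) at T and 0.175 (0.0826 to 0.337) at P+T, where *cdk8* had 11 pairs and WT 56. *XTH17* was lower by less in *cdk8*, with log2FC between −0.56 and −0.63 in the 4 treatments (adjusted p 0.0101 to 0.0145), all below the fold threshold. The summed root markers given above were lower in *cdk8* as well, with 1 of 6 called, and their part in these results was not tested.

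**Figure D3:**
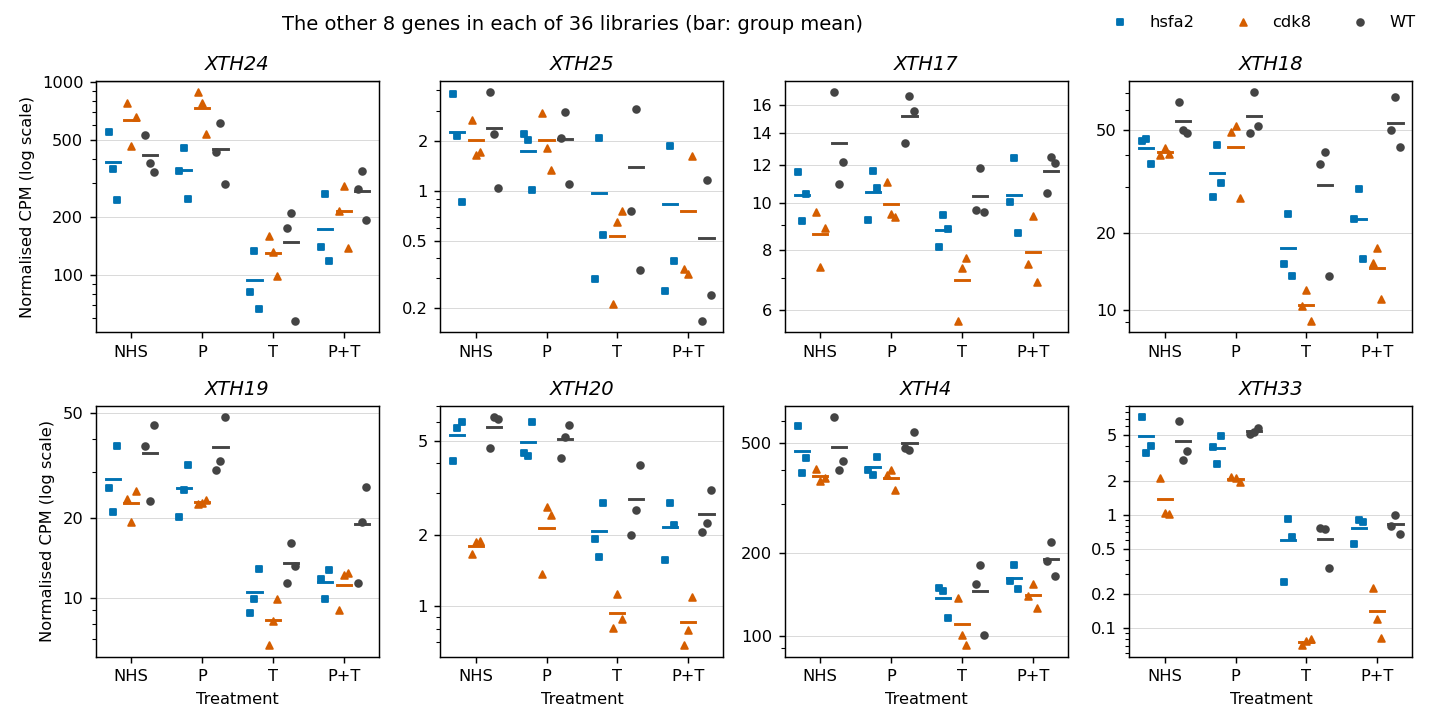
Normalised CPM (log axis, its range set per gene) of the 8 genes other than *XTR6* and *TCH4* in each library, by treatment and, within a treatment, for *hsfa2*, *cdk8* and WT. Points are libraries and short bars are means of 3. *XTH20* and *XTH33* are lowest in *cdk8* at every treatment, and the WT libraries of *XTH18* at P+T (42.9 to 67.2) lie above those of both mutants.

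Counted over the 10 genes, *cdk8* had lower expression than WT for 2 genes at NHS (1.55% of all genes) and 3 at P (1.4%), and for 5 each at T (5.56%) and P+T (6%), with higher expression for none. Before heat on day 7 the median log2FC of the 10 was −0.52 (NHS) and −0.51 (P), beside −0.01 for all genes tested in both. After it the median was −1.47 (T) and −1.14 (P+T), beside 0.03 and 0.02. *XTR6*, *TCH4*, *XTH18*, *XTH20* and *XTH33* were the 5 at T and at P+T. In *hsfa2* 0 of 10 genes passed at NHS (0.0192% of all genes in either direction), P (0.173%) and T (0.0528%). There 1, 4 and 2 had an unadjusted p under 0.05 in edgeR, beside 387, 1519 and 1236 of all 20847 genes. The 2 genes lower at P+T (1.42%) were *XTR6* and *XTH18*.

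**Figure D4:**
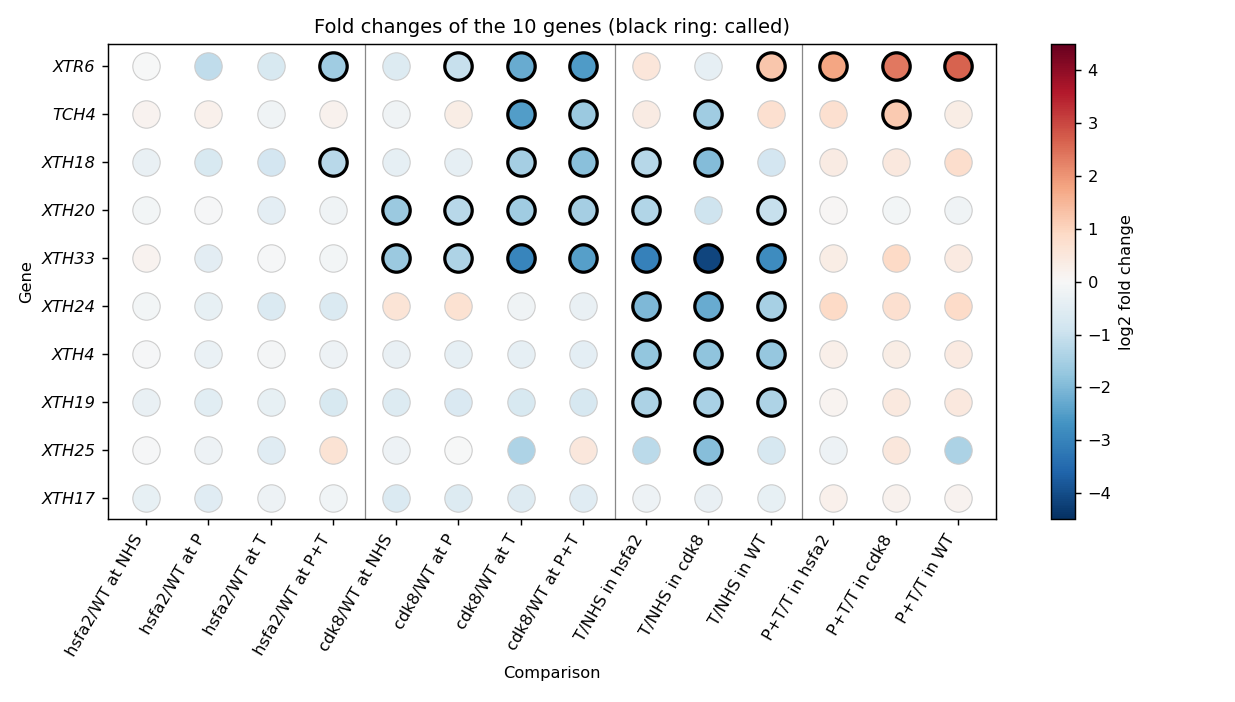
log2 fold changes of the 10 genes (rows) in 14 comparisons (columns), from red (higher) to blue (lower), with a black ring where the gene was called (edgeR, adjusted p under 0.05 and a log2FC beyond 1). The first 8 columns compare mutants with WT at each treatment, and the others compare T with NHS and P+T with T in each genotype. *XTR6* is ringed in all 3 P+T/T columns, and the T/NHS columns are mostly blue.

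After HS on day 7 more of the 10 genes were down- than up-regulated, in all genotypes. T/NHS had 6 of 10 genes down-regulated in *hsfa2* (15.9% of all genes), 7 in *cdk8* (15.9%) and 5 in WT (17.1%), and 1 up-regulated in WT (8.68%), which was *XTR6*. The median log2FC of the 10 was −1.32 in *hsfa2*, −1.70 in *cdk8* and −0.93 in WT, beside −0.03, −0.02 and −0.05 over all genes. Root markers were lower at T too, with 2 of 6 down-regulated in *hsfa2*, 2 in *cdk8* and 3 in WT (median log2FC −0.73, −0.86 and −1.17) and summed levels in WT of 1332 to 1513 normalised CPM at T, against 2329 to 2672 at NHS. Their part in the falls of *XTH18*, *XTH19* and *XTH20* was not tested. P+T/P had 5 lower (16.2%) and 2 higher (9.45%) in *hsfa2*, 6 lower (17.9%) and 1 higher (7.85%) in *cdk8*, and 4 lower (17.6%) and 2 higher (9.73%) in WT. With library size alone, these 2 comparisons were lower by 0.59 to 0.80 at the median gene, so the falls given here are relative to TMM scaling and are larger without it. P+T/T had 1 gene higher in *hsfa2* (1.14%), 2 in *cdk8* (1.48%) and 1 in WT (3.04%) and none lower. P/NHS had 0 of 10 in *hsfa2* (0.0144% of all genes), *cdk8* (0.024%) and WT (0.216%). At an unadjusted p under 0.05 in edgeR there were 0, 1 and 1, beside 1053, 927 and 1438 of all 20847 genes. DESeq2 called *XTR6* in WT and none in the other genotypes.

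*XTH4* showed the same fall in every genotype. It had 149, 145 and 116 normalised CPM at T in *hsfa2* against 573, 388 and 442 at NHS, 137, 100 and 92.1 at T in *cdk8* against 402, 365 and 374 at NHS, and 154, 180 and 101 at T in WT against 620, 399 and 431 at NHS. The T and NHS libraries were far apart in each case, with log2FC of −1.78 in *hsfa2*, −1.79 in *cdk8* and −1.74 in WT (SE 0.18 and adjusted p of at most 1.87e-09 in each). *XTH24*, first described from meristems, fell to a mean of 94.2 normalised CPM at T in *hsfa2*, against 384 at NHS (log2FC −2.03, adjusted p = 6.5e-05). In *cdk8* it had 131 at T, against 636 at NHS (−2.28, adjusted p = 1.54e-05), and in WT 148 at T, against 419 at NHS (−1.5, adjusted p = 0.00149). *XTH19* fell with −1.42 in *hsfa2*, −1.47 in *cdk8* and −1.37 in WT (adjusted p of at most 2.9e-05).

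*XTH33* had the deepest fall among the 10, with log2FC of −3.03 in *hsfa2* (SE 0.40, adjusted p = 4.17e-08), −4.12 in *cdk8* (SE 0.81, adjusted p = 4.71e-07) and −2.83 in WT (SE 0.40, adjusted p = 1.4e-07). In *cdk8* this rests on 6 read pairs at T against 166 at NHS (normalised ratio 0.0545, exact 95% interval 0.0197 to 0.121). *XTH20* fell in *hsfa2* (−1.34, adjusted p = 3.81e-05) and WT (−1.02, adjusted p = 0.000619) and gave −0.94 in *cdk8* (adjusted p = 0.00646), whose NHS level was already low. In WT it was below the fold threshold without NHS replicates 2 or 3 (−0.95 and −0.96) or T replicates 1 or 2 (−0.82 and −0.96), and in *cdk8* past it without T replicate 2 (−1.09) and with library size alone (−1.53). *XTH17* gave −0.36 in WT (adjusted p = 0.047), and −1.13 with library size alone.

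*XTH25*, the lowest gene per kb in WT at NHS, varied widely between libraries of a group. It had 2.66, 1.64 and 1.71 normalised CPM at NHS in *cdk8* and 0.211, 0.657 and 0.756 at T, with 6 to 19 read pairs per library at T. T/NHS in *cdk8* gave −1.90 (SE 0.83, adjusted p = 0.0411) and P+T/P in WT −1.95 (SE 0.86, adjusted p = 0.039). The value in *cdk8* lost the call without *cdk8* NHS replicate 1 or any *cdk8* T library (−1.48 to −2.22, adjusted p 0.0533 to 0.157), and that in WT without WT P replicates 1 or 2 or WT P+T replicates 1 or 3 (−1.51 to −1.94, adjusted p 0.0634 to 0.149). Leaving out the highest heated library brought *XTH25* past the threshold in T/NHS in *hsfa2* (without T replicate 2, −2.43) and WT (without T replicate 2, −2.08) and in P+T/P in *hsfa2* (without P+T replicate 2, −2.45) and *cdk8* (without P+T replicate 3, −2.60).

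P+T/P repeated these falls in primed seedlings for *XTH4*, *XTH33* and *XTH20* in every genotype, and for other genes only in some genotypes. *XTH4* fell with a log2FC of −1.34 in *hsfa2*, −1.42 in *cdk8* and −1.39 in WT (adjusted p of at most 2.33e-07), and *XTH33* with −2.35 in *hsfa2*, −3.82 in *cdk8* and −2.72 in WT (adjusted p of at most 2.31e-06). The value of *XTH33* in *cdk8* rests on 11 read pairs at P+T against 249 at P (normalised ratio 0.0693, exact 95% interval 0.0342 to 0.126). *XTH20* fell with −1.19 in *hsfa2*, −1.32 in *cdk8* and −1.05 in WT (adjusted p of at most 0.000542). In WT it was below the fold threshold without P replicate 3, P+T replicate 1 or P+T replicate 2 (−0.94, −0.93 and −0.99). *XTH19* fell with −1.17 in *hsfa2* and −1.03 in *cdk8*, and gave −0.97 in WT. It crossed the fold threshold without *hsfa2* P replicate 3 (−0.998, adjusted p = 0.00279, not called), *cdk8* P+T replicate 1 (−0.89, not called), or WT P replicates 1 or 2 or P+T replicate 3 (−1.10, −1.05 and −1.27, called). In WT it was also called with library size alone (−1.74). *XTH24* fell with −1.77 in *cdk8* (adjusted p = 0.000282) and −1.01 in *hsfa2* (adjusted p = 0.025). The value in *hsfa2* was not called without *hsfa2* P replicate 2 or P+T replicates 1 or 3 (−0.77 to −0.88) or with DESeq2 (−0.98). *XTH18* fell in *cdk8* (−1.55, adjusted p = 3.99e-05) and was not called in *hsfa2*. Neither *XTH24* nor *XTH18* was called in WT. There *XTH24* averaged 273 normalised CPM at P+T, against 451 at P, and *XTH18* averaged 53.4, against 57.0.

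Libraries of 1 replicate number deviated together at T. *XTR6*, *XTH18*, *XTH24* and *XTH4* had their lowest T library in replicate 3 in all 3 genotypes, 4 of 10 genes, as did 13.8% of 17846 genes with a mean of at least 1 CPM. For *XTR6* these were 46.3 in *hsfa2*, 12.4 in *cdk8* and 69.0 in WT. Replicate 3 was also lowest in all 3 genotypes at P+T for *XTH18*, *XTH24* and *XTH4*, and at P for *XTH24* and *XTH25*. The share of all genes was computed at T only. Without the 3 T libraries numbered 3, a choice made after the values were seen, T/NHS of *XTR6* was 0.85 in *hsfa2*, −0.02 in *cdk8* and 1.58 in WT, P+T/T was 1.48, 2.03 and 2.34 in the same genotypes, and the log2FC of *cdk8* against WT at T was −2.23. The standard errors of these values were 0.19 to 0.21, against 0.31 to 0.32 with all libraries. All groups share 1 dispersion per gene, so standard errors also changed where no T library was compared (0.17 for P/NHS in WT). *XTR6* then passed at P as well, in P/NHS in WT (log2FC 1.26, adjusted p = 4.91e-05) and in *hsfa2* against WT (−1.15, adjusted p = 0.000359), and its difference between P+T/T and P/NHS passed in *hsfa2* (1.36, adjusted p = 0.00611), *cdk8* (1.17, adjusted p = 0.0106) and WT (1.08, adjusted p = 0.00906).

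**Figure D5:**
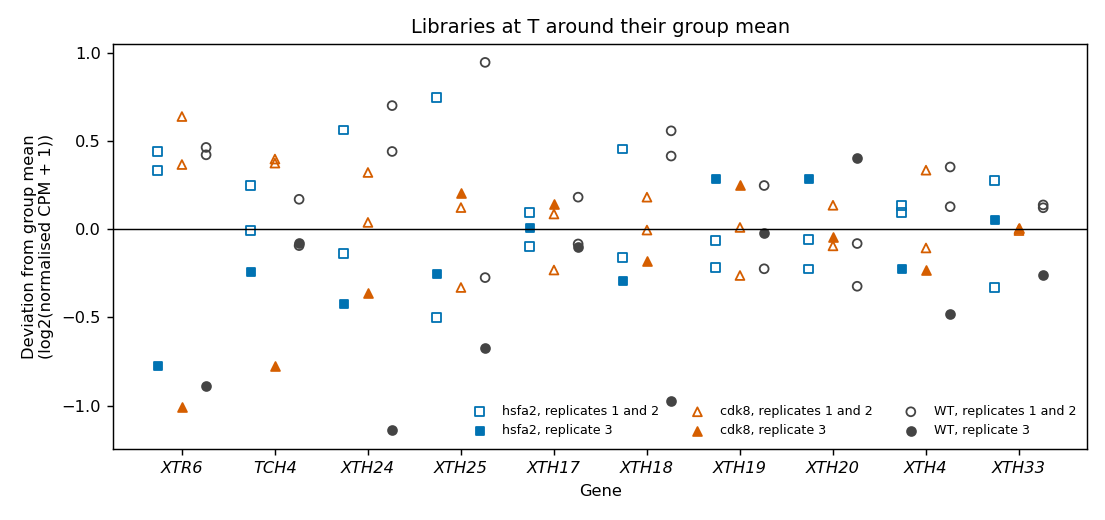
Deviation of each T library from the mean of its group, as log2(normalised CPM + 1), for the 10 genes in *hsfa2*, *cdk8* and WT. Filled symbols are replicate 3 and open symbols replicates 1 and 2. For *XTR6* the filled symbols lie lowest in each genotype, and for *XTH19* and *XTH20* they do not.

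Other genes of xyloglucan and wall metabolism were counted by lists. Of the 23 other XTH genes, 19 were tested. T/NHS in WT lowered 5 (17.1% of all genes) and raised 1 (8.68%), and P+T/T in WT changed none (4.67% of all genes in either direction). *cdk8* had 2 lower than WT at T (*XTH16* and *XTH9*, with 5.56% of all genes lower) and 2 at P+T (*XTH16* and *XTH7*, with 6% lower). These 3 genes were named after their values were seen. *XTH30* fell to 11.9 ± 2.27 normalised CPM at T in WT, against 57.2 ± 4.02 at NHS (SD, n = 3 each, log2FC −2.26, adjusted p = 5.08e-13), and *XTH12* gave −1.74 and *XTH11* 1.73. Together the 33 XTH genes summed to 920 ± 168 normalised CPM at T in *cdk8*, against 2237 ± 322 in WT, and to 1517 ± 123 at P+T in *cdk8*, against 3675 ± 412 in WT (SD, n = 3 each). The 10 genes made up 54.9 to 81.0% of that sum over the 12 groups, and *TCH4* alone 32.0 to 75.2% of the sum of the 10.

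Of 13 genes of xyloglucan synthesis, 6 were down-regulated in T/NHS in WT (17.1% of all genes), 7 did not pass and none was up-regulated. Among the 6 were the glucan synthases *CSLC4* (22 ± 3.16 normalised CPM at T, against 110 ± 6.69 at NHS, log2FC −2.32), *CSLC8* (−2.17) and *CSLC12* (−2.44). *XXT1*, a xylosyltransferase, was the 1 gene of this list up-regulated in P+T/T in WT (1.01, adjusted p = 0.000209, 3.04% of all genes). Of 3 xyloglucan hydrolase genes, the xylosidase gene *XYL1* (−1.66) and the fucosidase gene *AXY8* (−1.08) fell at T. Among 15 expansin genes tested, which code for wall-loosening proteins, 5 fell (17.1% of all genes) and 1 rose (8.68%) in T/NHS in WT. *EXPA8* rose to 67.6 ± 22.1 normalised CPM at T, against 14.2 ± 2.23 at NHS (SD, n = 3 each, log2FC 2.25, adjusted p = 5.19e-09), and fell again in P+T/T (−1.19). *EXPA16* (−4.12) and *EXPA14* (−2.39) fell at T, and in P+T/T *EXPA16* rose (2.36) and *EXPA11* fell (−1.28). Of 3 touch-inducible calmodulin genes, *CML12* was lower in *cdk8* at T, with 13.3 to 21.9 normalised CPM in *cdk8*, against 86.4 to 162 in WT (log2FC −2.88, SE 0.24, adjusted p = 4.93e-10), and at P+T (−2.05). Unlike *TCH4*, it was also below every WT library at NHS (51.4 to 74.7, against 95.3 to 132 in WT) and P (42.1 to 66.7, against 69.5 to 97.4 in WT). *CML24* was lower in *cdk8* at T (a mean of 17.9, against 29.9 in WT) and overlapped WT at P+T (35.4 against 33.2). *CAM2* overlapped WT at both. These 3 genes were named after their values were seen. None of these 5 lists had a gene called in *hsfa2* against WT at T or P+T, where 0.0528% and 1.71% of all genes were called in either direction.

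The genes whose pattern was most like that of *XTR6* were named by Pearson's r of log2(normalised CPM + 1) over 17836 genes with a mean of at least 1 CPM. Over the 36 libraries these were *AGK2* (r = 0.926), *WEB1* (0.921), *CIPK12* (0.916), *UGT71C2* (0.903) and AT2G41170 (0.892). Over the 12 group means they were *ECA2* (0.965), *WEB1* (0.959), AT5G16200 (0.959), AT4G08570 (0.958) and *AGK2* (0.951). The points share their libraries and scaling factors, and the values are a description. The order depends on the scaling. With library size alone, 2 of the 5 genes over libraries (*UGT71C2* and AT2G41170, then first with 0.9) and 1 of the 5 over group means were again among the first 5. *UGT71C2* showed the widest range of these, with a mean of 17.8 normalised CPM at P+T in *hsfa2* and 19.8 in *cdk8*, against 78.5 in WT, and 10.4 at NHS in WT. *TCH4* came closest among the other 9 genes (r = 0.681 over libraries, 0.689 over group means).

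Heat shock elements, the sites that heat shock factors bind, were searched as GAANNTTC and TTCNNGAA on both strands, in windows from 250 bases before to 50 after the annotated start. *XTH33* alone among the 10 genes had matches, GAACATTC at −144 and TTCTTGAA at −218, each once. Over 27437 windows of protein-coding genes 11.6% held GAANNTTC and 9.17% TTCNNGAA. A run of 3 alternating units (0.481% of windows) and the G-box CACGTG (7.68%) were in none of the 10. The stretch with both matches, in capitals, is printed because it holds the only matches among the 10 genes. A link between a match and the response to heat was not tested.
*XTH33*, chr1:3481172-3481265, reverse: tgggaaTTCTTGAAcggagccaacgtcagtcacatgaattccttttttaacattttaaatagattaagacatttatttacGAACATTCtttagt
A match of letters is a description and not a binding site.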

How the data were processed

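Messenger RNA of seedlings, enriched from total RNA with oligo-dT, was sequenced as read pairs. The authors aligned them to TAIR10 with STAR 2.7.10a and deposited raw counts per gene for each library. The strand setting behind the count column used is not given in the sources used here. The counts of 36632 genes were read as deposited, leaving out the summary lines for unmapped, multimapping and unassigned reads. Sequences and positions come from RefSeq's TAIR10.1, whose nuclear chromosomes are those of TAIR10.

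Genes passing edgeR's expression filter (minimum count 10, total 15) numbered 20847. All 12 groups were fitted in 1 model with TMM scaling and edgeR 4.0.16 (quasi-likelihood test, R 4.3.3), and comparisons were contrasts with Benjamini-Hochberg adjustment over all genes. The standard error is a Wald error from the fitted information and the moderated quasi-likelihood dispersion. A call needed an adjusted p under 0.05 and, outside interactions, an absolute log2FC above 1. Levels per kb used the union of exons. P-values measure the spread between libraries within groups, pooled over all 12 groups through 1 dispersion per gene. Libraries outside a comparison therefore enter its p as well. The 3 libraries per group were labelled as separate replicates. The procedure was tested on simulated data, where edgeR recovered 98.5% of genes given a log2 fold change of 2 in P+T/T in WT (20501 genes run). The simulated libraries were independent, and the 200 genes changed had a mean of at least 1 CPM. Deviations shared by same-numbered libraries were not simulated, so the share recovered need not hold for these data.

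The 10 genes and the pathway lists were chosen with earlier results of these data known. All 10 genes are described, and from each pathway list up to 3 genes with the largest called change in T/NHS in WT and up to 3 in P+T/T in WT were named, with a mean of at least 1 CPM. Names outside this rule are marked in the text. Alternatives were library-size scaling, DESeq2 size factors, DESeq2 1.42.0, no filter beyond 1 read, a mean of at least 1 CPM, each genotype fitted alone, a replicate block and leaving out each library. Comparisons of P+T/P between genotypes, of *cdk8* with *hsfa2* and of P+T/T with P/NHS, and the fit without the 3 T libraries numbered 3, were chosen after seeing the data. Replicate numbers were checked for pairing on 17846 genes. Residuals of same-numbered libraries had a median correlation of 0.2, against -0.119 for others, and each pair exceeded 0.1 in all comparisons of *hsfa2* with WT, of *cdk8* with WT except at P, of *cdk8* with *hsfa2*, in P+T/T of *hsfa2* and WT, in P+T/P of WT and in P/NHS of *hsfa2*. No source states what the number marks. No 2 replicates were alike within sampling noise (for 36 pairs, chi-square was 6.47 to 57.6 times its degrees of freedom).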

Additional observations from a re-analysis of the deposited data

Results flagged for a closer look

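The heat response of 3 genes differed between *cdk8* and WT by a direct test of the difference with edgeR. In T/NHS the log2 fold change was lower in *cdk8* by -1.64 for *XTR6* (adjusted p = 0.0262, 0.00802 to 0.0586 over the settings that kept every library, and not passed without any of 6 of the 12 libraries) and by -2.32 for *TCH4* (adjusted p = 6.48e-06). P+T/P was compared between genotypes only after the values were seen. There the log2 fold change was lower in *cdk8* by -1.51 for *XTR6* (adjusted p = 0.0396, 0.014 to 0.0862 over those settings), -1.46 for *XTH18* (adjusted p = 0.029, 0.000843 to 0.0712 over those settings) and -2.01 for *TCH4* (adjusted p = 5e-05). The P+T/P calls of *XTR6* and *XTH18* were each lost without any 1 of most of the 12 libraries compared (adjusted p up to 0.11 and 0.106 in edgeR). The sum of 6 root marker genes was also lower in *cdk8*, at NHS as well as after heat. It rests mostly on 1 gene, *PYK10*, and its part in these differences was not tested.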

How the results depend on the processing

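Most counts of called genes among the 10 were within 1.5 times of their value under the alternatives run. Those that were not are given here, and where none is stated the cause was not tested. P/NHS in WT had 1 in place of 0 with DESeq2, with no filter, with the replicate block and without the 3 T libraries numbered 3. *hsfa2* against WT at P had 1 in place of 0 without those 3 libraries and with the replicate block, which changed no other call among the pairs of groups whose numbers deviate together. P+T/T in *cdk8* had 1 in place of 2 without them. With library size alone the lower responses of *cdk8* were 1 in place of 2 in T/NHS and 1 in place of 3 in P+T/P. For P+T/T against P/NHS, WT had 1 in place of 0 with DESeq2, no filter, the replicate block, the genotype alone and without those 3 T libraries. *hsfa2* had 1 in place of 0 in the same fits other than DESeq2, with DESeq2 size factors and with a mean of at least 1 CPM, and 2 with DESeq2. *cdk8* had 0 in place of 1 with library size and alone, and 2 with DESeq2 and with the replicate block.

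Leaving out 1 library gave counts of 1 to 2 for P+T/T in WT, for P+T/T in *cdk8* and for *hsfa2* against WT at P+T. It gave 1 to 3 for T/NHS and for P+T/P of *cdk8* against WT, where 3 in T/NHS came from adding *XTH18* without WT T replicate 3. It gave 0 to 1 for P+T/T against P/NHS in *hsfa2* and in WT, and 0 to 2 in *cdk8*. Directions turned with library size for T/NHS of *XTR6* in *hsfa2* (-0.22) and of *TCH4* in *hsfa2* (-0.43) and WT (-0.053). They also turned among library omissions for P/NHS of *XTR6* in *hsfa2* (-0.0088 to 0.41) and for its P+T/T in *cdk8* against WT (-0.64 to 0.069), neither of them called. *XTH33* and *XTH25*, with as few as 2 and 4 read pairs in a library, are limited by depth.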
